A study of Homo sapiens with 14 samples.

Results

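The genes described here are 9 genes of cellular iron handling: the ferritin chains FTH1 and FTL, the transferrin receptor TFRC, the iron transporters SLC11A2 and SLC40A1, the iron regulatory proteins ACO1 and IREB2, the hypoxia factor EPAS1 and the iron hormone HAMP. They were chosen by symbol, and all 9 have a row among the 21573 gene rows of the deposited expression table. Of these, 7 reached a mean of at least 1 RPKM (reads per kilobase of transcript per 1000000 mapped reads), whereas HAMP and SLC40A1 did not. The series holds 14 samples of cells labelled HepG2, a human line from a liver carcinoma, given scrambled siRNA (control) or siADAR1, which targets the RNA editing enzyme ADAR1 (KD). The methods give 20 µM of siRNA and 48 h of silencing, and the transfection is called stable. PARS-seq comprised 8 libraries, 2 replicates for each condition and nuclease, where S1 nuclease cuts unpaired bases and RNase V1 cuts paired bases of purified poly-A RNA. RNA-seq comprised 2 libraries, a single one for each condition, and Ribo-seq, which sequences the RNA fragments protected by ribosomes, comprised 4 libraries, 2 for each condition.

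Cells adjust iron through a hairpin in certain mRNAs, the iron-responsive element (IRE). When iron is scarce, the iron regulatory proteins IRP1, encoded by ACO1, and IRP2, encoded by IREB2, bind this hairpin. Binding near the 5′ end, as in the ferritin, SLC40A1 and EPAS1 mRNAs, blocks the start of translation, and binding in the 3′ UTR, as in TFRC, protects the mRNA from decay. Iron storage falls and iron uptake rises as a result. ACO1, IREB2 and HAMP are not themselves known as IRE carriers. ACO1 doubles as the cytosolic aconitase when it holds an iron-sulfur cluster, IRP2 is degraded when iron is plentiful, and HAMP encodes hepcidin, which removes the iron exporter from the cell surface.

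The hairpins are shown because they define most members of the group. The search required a C, any 5 bases, the loop CAGTGN on the sense strand, and 5 bases after the loop that pair with the 5 before it, with G paired to C or T, A paired to T, and at most 1 unpaired base on the 3′ side. The capitals mark the loop of 6 bases, and each line gives 30 bases of the reference (GRCh37, GENCODE release 44, DNA letters).
FTH1: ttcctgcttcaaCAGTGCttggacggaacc
FTL: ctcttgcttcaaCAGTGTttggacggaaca
SLC40A1: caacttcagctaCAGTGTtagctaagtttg
EPAS1: tacaatcctcggCAGTGTcctgagactgta
TFRC match 1: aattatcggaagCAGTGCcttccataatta
TFRC match 2: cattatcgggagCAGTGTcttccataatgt
TFRC match 3: ctgtatcggagaCAGTGAtctccatatgtt
TFRC match 4: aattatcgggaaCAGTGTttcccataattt
SLC11A2: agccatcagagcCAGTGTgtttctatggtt
IREB2: catttgctttcaCAGTGAtgagtgagagga

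The match of FTH1 lies at chr11:61735045-61735074 on the minus strand, that of FTL at chr19:49468592-49468621 on the plus strand, that of SLC40A1 at chr2:190445386-190445415 on the minus strand and that of EPAS1 at chr2:46524618-46524647 on the plus strand. All 4 are in the 5′ UTR, with the loop starting at base 45, 39, 110 and 85 of the canonical transcript. The 4 TFRC matches lie in the 3′ UTR on the minus strand, at chr3:195777849-195777878, chr3:195777445-195777474, chr3:195777380-195777409 and chr3:195777333-195777362, between 950 and 1466 bases after the coding sequence. The SLC11A2 match, at chr12:51382051-51382080 on the minus strand, is in the 3′ UTR 43 bases after the coding sequence, and 8 of the 33 annotated transcripts of the gene hold it. For EPAS1 and IREB2 the match is held by 1 of 10 transcripts each, and for SLC40A1 by 3 of 7. Each TFRC match is held by 26 of 38 transcripts, that of FTH1 by 10 of 12 and that of FTL by 1 of 1. The stems of EPAS1, SLC11A2 and IREB2 each needed 1 unpaired base, and the other 7 did not. The IREB2 match, at chr15:78793311-78793340 on the plus strand, starts 2841 bases into the 3′ UTR. No match was found in ACO1 or HAMP. Over 19553 canonical protein-coding transcripts, 0.22% had a match in the 5′ UTR and 1.58% in the 3′ UTR, and a match by itself is a description of the sequence that does not establish binding. The map of matches along the transcripts shows both arrangements.

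**Figure D1:**
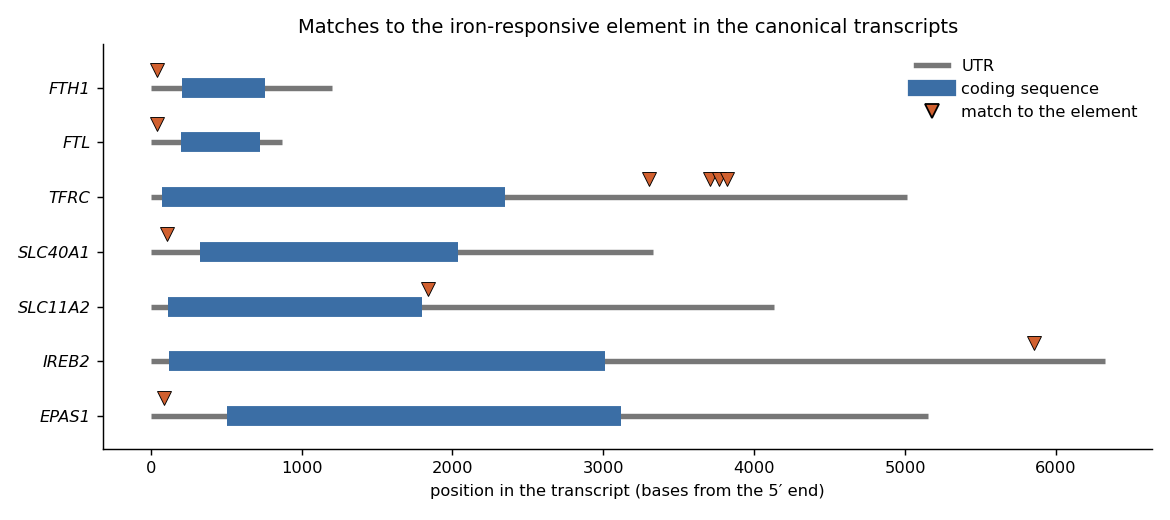
The x axis is the position in the canonical transcript in bases from the 5′ end; the thin bars are UTRs, the thick bars coding sequence and the triangles loop starts of IRE matches. FTH1, FTL, SLC40A1 and EPAS1 have 1 match each ahead of the coding sequence, TFRC has 4 behind it, and SLC11A2 and IREB2 have 1 each behind it.

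Library facts bear on every value below. ADAR had 54.8 RPKM in RNA-seq control and 15.4 in KD. Its KD to control ratio was 0.371 and 0.322 in the PARS-seq replicates and 0.2 in Ribo-seq replicate 1, but 0.794 in Ribo-seq replicate 2. The steps between RPKM values gave whole reads, within 0.02 reads, for 99.9% of genes, with totals of 30209865 to 40729941 reads in RNA-seq and 995682 to 3322918 in Ribo-seq. PARS-seq libraries held 96618292 to 214584779 read starts. The 7 markers of a hepatocyte line (ALB, APOA1, APOB, AFP, TTR, SERPINA1 and FGB) were at or near 0, with a summed level between 0 and 0.0954 RPKM over the 10 columns, which goes against the label HepG2. Of other markers, 3 leukocyte genes summed to 1.90 to 23.0 RPKM, with PTPRC between 0 and 0.0226 and CD68 the highest of them in every column, 2 fibroblast genes to 9.83 to 54.8, 4 erythroid genes to at most 1.00 and 2 endothelial genes to at most 0.172 RPKM. CD68 was itself past the fold rule downwards in PARS-seq, with ratios of 0.294 and 0.425, and had 0.685 in RNA-seq and 0.436 and 1.61 in Ribo-seq. Nearly all of the fibroblast sum came from COL1A1, which was lower in KD in all 5 pairs, with 0.848 and 0.662 in PARS-seq, 0.738 in RNA-seq and 0.987 and 0.681 in Ribo-seq. The part of these markers in the members' values was not tested. In bulk RNA, fewer cells that express a gene and less RNA in each cell cannot be told apart. For PARS-seq the authors deposited the mean RPKM of the S1 and V1 libraries of each replicate, and that mean is what is given here.

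Both ferritin mRNAs were among the most abundant transcripts, while the exporter and the hormone were nearly absent. In the RNA-seq control library the order of the levels per transcript length was FTL with 5357 RPKM, FTH1 with 3234, TFRC with 37.4, EPAS1 with 14.9, ACO1 with 8.86, IREB2 with 6.41 and SLC11A2 with 5.30, followed by SLC40A1 with 0.0293 and HAMP at 0. FTL ranked first of all genes in both PARS-seq control replicates. With a single RNA-seq library the neighbours in this order have no replicate check. In PARS-seq the 2 control replicates of IREB2, 18.4 and 14.9 RPKM, lay above those of SLC11A2, 10.1 and 8.52, and those of SLC11A2 lay above those of EPAS1, 6.80 and 7.66.

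SLC40A1 (chr2:190425316-190448484) encodes ferroportin, the exporter of iron from animal cells, and its level was between 0 and 0.359 RPKM in the 10 columns. Its values rested on 4 reads in RNA-seq control and 6 in RNA-seq KD, and on 0 reads in both replicate 1 libraries of Ribo-seq, which allows up to 3 reads. The counting interval of its RNA-seq ratio ran from 0.48 to 9.74, so that no change could be detected at this depth. HAMP (chr19:35771619-35776046) was listed at 0 in all RNA-seq and Ribo-seq libraries, and its PARS-seq values of 0.0176 and 0.291 RPKM in control against 0.14 and 0.136 in KD overlapped.

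FTL was lower in KD in all 5 pairs of libraries. The ferritin light chain, encoded by FTL (chr19:49468566-49470136), helps to lay down the mineral core of ferritin. FTL had 21762 and 19592 RPKM in the PARS-seq control replicates against 4837 and 8739.7 in KD, and 5357 RPKM in RNA-seq control against 2244 in KD. In Ribo-seq it had 263 RPKM in control and 105 in KD of replicate 1, and 1842 in control and 1064 in KD of replicate 2. The PARS-seq conditions did not overlap, as for 27.2% of all genes that were lower and 33.3% that were higher in KD, and the 2 conditions overlapped in Ribo-seq because its replicates lay far apart. The KD to control ratios were 0.222 and 0.446 in PARS-seq, 0.419 in RNA-seq with a 95% counting interval of 0.415 to 0.423, and 0.401 and 0.577 in Ribo-seq. Of 10794 genes with a ratio in all 5 pairs, 0.834% were lower by more than 1.5-fold in all 5, and FTL was the only member among them, while 0.862% were higher in all 5 and no member was.

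FTH1 levels were close to those of control in RNA-seq. The ferritin heavy chain, encoded by FTH1 (chr11:61727190-61735106), carries the ferroxidase activity that oxidizes iron for storage. FTH1 had 905 and 1095 RPKM in PARS-seq control against 749.7 and 1005 in KD, so that the conditions overlapped. In RNA-seq it had 3234 RPKM in control against 3206 in KD (ratio 0.991). In Ribo-seq its ratio was 0.419 in replicate 1, from 172 to 71.8 RPKM, and 1.22 in replicate 2, from 296 to 361 RPKM, so that the replicates went in opposite directions. The level of FTL relative to FTH1 within a library was 24.0 in control against 6.45 in KD and 17.9 against 8.70 in the PARS-seq pairs, 1.66 against 0.7 in RNA-seq, and 1.53 against 1.47 and 6.23 against 2.94 in the Ribo-seq pairs. It was lower in KD in all 5 pairs. RefSeq lists 27 processed copies (pseudogenes) named for FTH1 and 20 for FTL, and since the authors kept uniquely aligned reads, part of the reads of both genes may be missing from their levels, which are uncertain to that extent.

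TFRC (chr3:195739382-195809024), the receptor that takes up transferrin-bound iron, was lower in KD at the RNA level. It had 154 and 101 RPKM in PARS-seq control against 100.2 and 68.4 in KD, and 37.4 RPKM in RNA-seq control and 23.0 in KD. The PARS-seq conditions did not overlap, by a narrow margin. The ratios were 0.652 and 0.678 in PARS-seq and 0.615 in RNA-seq, with a counting interval of 0.591 to 0.639. In Ribo-seq TFRC had 178 RPKM in control against 145 in KD of replicate 1 (ratio 0.817), and 40.9 in control against 73.2 in KD of replicate 2 (ratio 1.79). The replicates of Ribo-seq thus lay on opposite sides of 1.

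SLC11A2 was higher in KD in every pair of libraries. SLC11A2 (chr12:51373184-51422349) encodes DMT1, which carries ferrous iron across the endosomal and plasma membranes. It had 10.1 and 8.52 RPKM in PARS-seq control against 22.0 and 20.4 in KD, and 5.30 in RNA-seq control against 7.48 in KD. In Ribo-seq it had 9.0 in control and 13.5 in KD of replicate 1, and 6.63 in control and 10.1 in KD of replicate 2. Neither PARS-seq nor Ribo-seq values of the 2 conditions overlapped, and in Ribo-seq the same held for 10.7% of all genes upwards and 7.12% downwards. The ratios were 2.18 and 2.39 in PARS-seq, 1.41 in RNA-seq with a counting interval of 1.31 to 1.52, and 1.5 and 1.52 in Ribo-seq with counting intervals of 1.10 to 2.07 and 1.21 to 1.91.

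Of the 2 iron regulatory proteins, IREB2 was past the fold rule downwards in PARS-seq and RNA-seq and ACO1 was past it in neither. ACO1 (chr9:32384601-32454767) had 33.6 and 50.9 RPKM in PARS-seq control against 53.1 and 52.3 in KD, and 8.86 RPKM in RNA-seq control and 9.69 in KD. In Ribo-seq ACO1 had 25.5 RPKM in control and 29.9 in KD of replicate 1, and 6.87 in control and 10.8 in KD of replicate 2. The ratio was above 1 in all 5 pairs but only 1.03 in PARS-seq replicate 2, under the median of all genes, and 1.09 in RNA-seq. IREB2 (chr15:78729773-78793795) had 18.4 and 14.9 RPKM in PARS-seq control against 12.1 and 8.52 in KD, and 6.41 in RNA-seq control against 3.78 in KD. In Ribo-seq IREB2 had 26.3 RPKM in control against 14.6 in KD of replicate 1, and 14.2 against 14.5 in replicate 2. Its ratios were thus 0.655, 0.571, 0.59 and 0.556, but 1.02 in Ribo-seq replicate 2. The level of ACO1 relative to IREB2 within a library was higher in KD in all 5 pairs, from 1.83 to 4.41 and from 3.41 to 6.14 in PARS-seq, from 1.38 to 2.56 in RNA-seq, and from 0.967 to 2.04 and from 0.483 to 0.744 in Ribo-seq.

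EPAS1 (chr2:46520806-46613836), which encodes the oxygen-regulated transcription factor HIF-2α, was higher in KD in every pair. It had 6.80 and 7.66 RPKM in PARS-seq control against 14.4 and 10.7 in KD, and 14.9 in RNA-seq control against 32.5 in KD. In Ribo-seq it had 9.53 in control and 18.7 in KD of replicate 1, but 0.99 in control and 1.77 in KD of replicate 2, on 17 and 22 reads. The PARS-seq conditions did not overlap, and the Ribo-seq conditions did. The ratios were 2.12 and 1.40 in PARS-seq, 2.18 in RNA-seq with a counting interval of 2.08 to 2.28, and 1.97 and 1.79 in Ribo-seq, where the interval of the latter, 0.907 to 3.59, includes 1.

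The levels in all libraries and the ratios of each pair are plotted together.

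**Figure D2:**
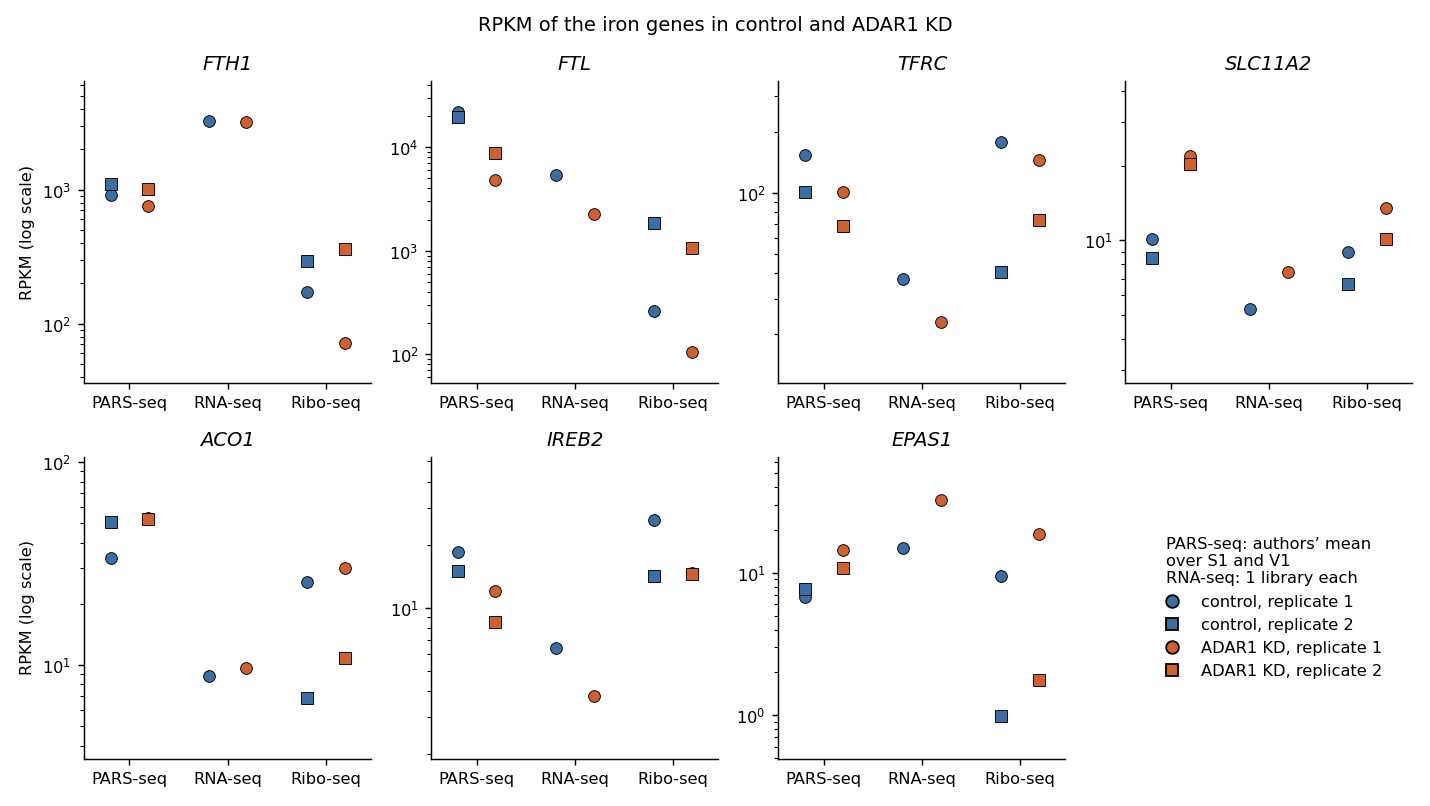
Each panel is a gene, the y axis is RPKM on a log scale, blue is control and orange KD, circles are replicate 1 and squares replicate 2. FTL is lower and SLC11A2 and EPAS1 are higher in KD in every pair. The Ribo-seq replicates of FTL, TFRC, ACO1 and EPAS1 lie farther apart than their conditions.

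**Figure D3:**
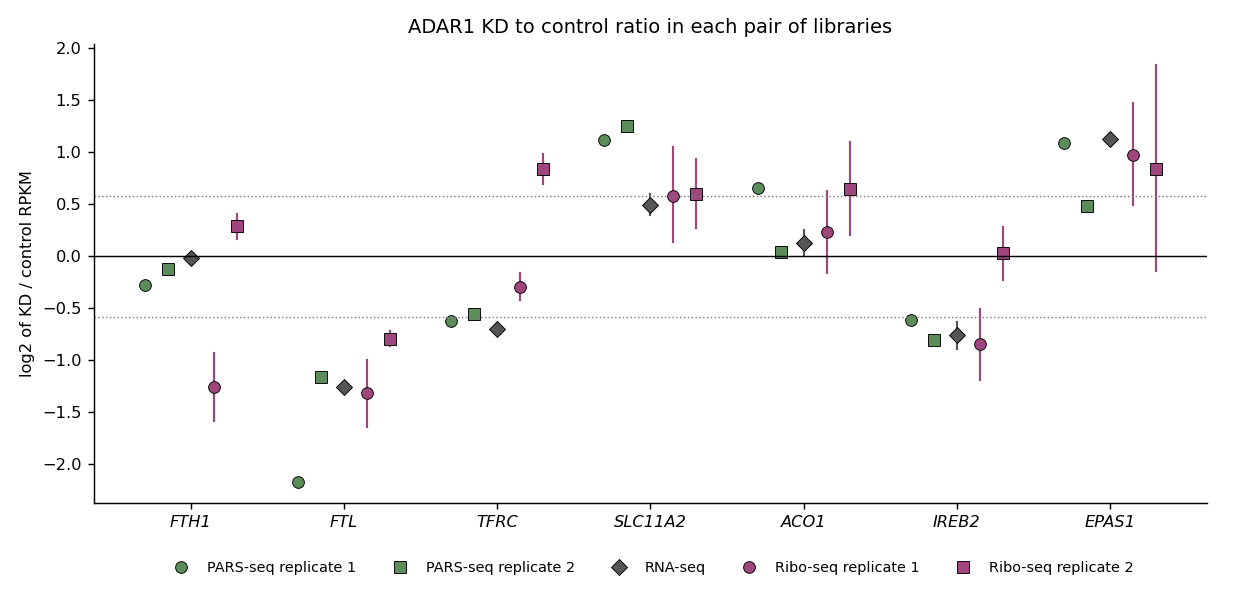
The y axis is the log2 of the KD to control ratio of RPKM in each of 5 pairs of libraries; vertical lines are 95% counting intervals where reads could be recovered, and dotted lines mark 1.5-fold. FTL lies below and SLC11A2, ACO1 and EPAS1 lie above 0 in all 5 pairs, while FTH1, TFRC and IREB2 lie on both sides in Ribo-seq.

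Counted by a fold rule, the members were called in both directions. In PARS-seq, 8.69% of 11152 genes were higher and 8.1% lower by more than 1.5-fold in both replicates without overlap, and of the 7 members tested 1 was higher, SLC11A2, and 2 were lower, FTL and IREB2. With a pseudocount of 1 RPKM the call of IREB2 was lost. In RNA-seq, 6.75% of 10945 genes were past 1.5-fold upwards and 7.41% downwards, and of the 7 members 1 was higher, EPAS1, and 3 were lower, FTL, TFRC and IREB2. These counts come from a fold rule and have no test, and each RNA-seq condition is a single library. The median ratio of all genes was 1.03 and 1.04 in PARS-seq, 0.984 in RNA-seq and 0.975 and 1.13 in Ribo-seq. In the direction shared by all 5 pairs, 3 members were higher (SLC11A2, ACO1 and EPAS1), where 14.5% of all genes were, and 1 was lower (FTL), where 9.85% were. The sources used here do not say whether the assays drew on the same cultures, so the 5 pairs may not be independent.

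No member passed a test in Ribo-seq. With limma on log2(RPKM + 1) over 10881 genes, FTL had a KD minus control difference of −1.05 ± 1.49 (SE, n = 2 libraries for each condition), EPAS1 of 0.69 ± 1.21, SLC11A2 of 0.54 ± 0.42, ACO1 of 0.40 ± 0.80, TFRC of 0.27 ± 0.87, IREB2 of −0.39 ± 0.48 and FTH1 of −0.48 ± 0.94. The adjusted p was 1.00 for each of the 7 (limma, Benjamini-Hochberg), and 0.0% of all genes were called in either direction, with 29 genes higher and 14 lower at an unadjusted p under 0.05. With the replicate number as a block, 0.781% of genes were called higher and 0.533% lower, and no member was among them. The study calls the replicates biological, but the sources used here do not say that they came from separate cultures. The p-values without the block thus measure only the spread between these samples. With the block, the variance came from a trend over all genes (10881 degrees of freedom). Those p-values do not measure the spread of a single gene. ADAR, the targeted gene, had −1.26 ± 0.82 and was not called without the block (adjusted p 1.00), but was called with it (adjusted p 0.0238, limma).

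The Ribo-seq level per unit of RNA was low for both ferritin chains. The ratio of Ribo-seq to RNA-seq RPKM for FTH1 was 0.0531 (control replicate 1), 0.0915 (control replicate 2), 0.0224 (KD replicate 1) and 0.113 (KD replicate 2). FTH1 was the 15th and 26th lowest of 9718 and 10087 genes in control, and the 6th and 80th lowest in KD. FTL had 0.0491 and 0.344 in control, against 0.047 and 0.474 in KD, so that it was among the lowest genes in replicate 1 and nearer the median of all genes, 0.631 in control and 0.722 in KD, in replicate 2. Both chains were below the median in all 4 libraries. Reads lost to the pseudogenes named above may differ between Ribo-seq and RNA-seq, and their part in these ratios was not tested.

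TFRC, SLC11A2, ACO1 and IREB2 were above the median of all genes. TFRC had a Ribo-seq to RNA-seq ratio of 4.74 and 1.09 in control, against 6.30 and 3.18 in KD. SLC11A2 had 1.70 and 1.25 in control, against 1.80 and 1.35 in KD. ACO1 had 2.88 and 0.776 in control, against 3.08 and 1.11 in KD. IREB2 had 4.11 and 2.22 in control, against 3.88 and 3.84 in KD. All 4 genes were above the median in all 4 libraries, and EPAS1 was below it in the 3 where it reached 1 RPKM, with 0.638 in control replicate 1 and 0.576 and 0.0544 in KD. RPKM divides by the whole transcript in both assays, while ribosomes occupy mainly the coding part, so that the ratio of a gene also depends on the share of its UTRs. The RNA-seq library is shared by both Ribo-seq replicates of a condition.

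**Figure D4:**
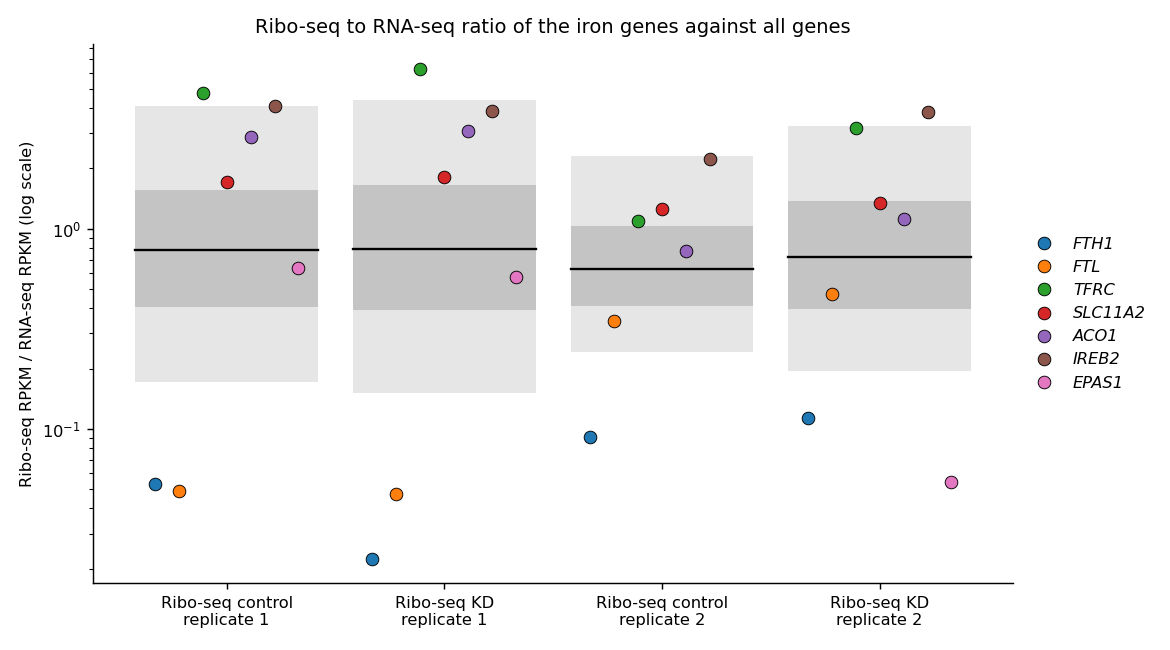
The y axis is the ratio of Ribo-seq to RNA-seq RPKM on a log scale in the 4 Ribo-seq libraries; the black line is the median of all genes, the dark band its quartiles and the light band the range from the 5th to the 95th percentile. FTH1 lies under the light band in all 4 libraries, and IREB2 and TFRC lie near or above its upper edge except TFRC in control replicate 2.

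From control to KD, the Ribo-seq to RNA-seq ratio of TFRC was 1.33 and 2.91 times as high, at the 83.7th and 98.7th percentile of all genes, whose medians were 1.01 and 1.15. The next highest member was IREB2 in replicate 2, at the 82.9th percentile. FTH1 had 0.422 and 1.23, FTL 0.958 and 1.38, SLC11A2 1.06 and 1.08, ACO1 1.07 and 1.43, and IREB2 0.943 and 1.73. EPAS1 had 0.903 in replicate 1. These ratios have no test, and those of replicate 2 stand on the pair in which ADAR had a ratio of 0.794.

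Iron genes differed strongly between the 2 Ribo-seq replicates of the same condition. FTL in replicate 1 had 0.143 times its replicate 2 value in control and 0.0991 times in KD, ranks 86 of 9711 and 51 of 9797 from the lowest. FTH1 had 0.58 and 0.199 times. TFRC had 4.34 times in control and 1.98 times in KD, ACO1 3.71 and 2.77 times, and EPAS1 10.6 times in KD, where it ranked 9786 of 9797. The quartiles of all genes lay between 0.734 and 2.12 times in control and between 0.745 and 1.59 times in KD. In replicate 1, thus, both ferritin chains were low and TFRC and ACO1 were high in control and in KD alike, while SLC11A2, with 1.36 and 1.34 times, and IREB2, with 1.85 and 1.01 times, lay near the middle. Replicate 1 also had fewer reads, 995682 and 1404542 against 3322918 and 2405072 in replicate 2, and the part of depth in these differences was not tested.

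Read starts at single-base resolution were examined for the 2 members that the study pairs with a UCSC transcript. These starts come from the same 8 libraries as the PARS-seq RPKM and are not independent of it. SLC11A2 is paired with uc001rxk.2, of 4156 bases, and ACO1 with uc003zqw.4, of 3561 bases. Read starts are given per 1000000 on the 4722 transcripts listed in all 8 libraries, since S1 control replicate 1 lists no others.

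SLC11A2 had more read starts in KD with both enzymes. With S1 it had 53.3 and 38.6 per 1000000 in control against 90.8 and 88.0 in KD, and with V1 36.0 and 27.5 in control against 51.7 and 64.0 in KD. The conditions did not overlap with either enzyme, but the share of all transcripts for which this held was not counted. The log2 difference was 0.98 ± 0.28 (SE) with S1, with an adjusted p of 0.00454 (limma, 4721 transcripts), where 1.48% of all transcripts were called higher and 18.6% lower. With V1 it was 0.87 ± 0.32, with an adjusted p of 0.0615 (limma, 16885 transcripts), where 2.05% were called higher and 7.9% lower. Both fits took the variance from a trend over all transcripts, with 9442 and 33770 degrees of freedom. These SE and p-values thus do not measure the spread of SLC11A2, or of ACO1 below, between its own libraries. The median difference of all transcripts was −0.36 with S1 and −0.14 with V1. TMM scaling, which moves these medians to 0.00452 and 0.0225, gave 1.34 for S1 and 1.04 for V1, and then SLC11A2 passed the test with V1 as well, with an adjusted p of 0.00959 (limma). The S1 difference stayed at 0.96 without KD replicate 1 and 1.00 without KD replicate 2, but its adjusted p was then 0.165 and 0.151 (limma), and the V1 difference was called without KD replicate 1, with one of 0.0331 (limma).

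ACO1 was not called with either enzyme. With S1 it had 70.9 and 113 read starts per 1000000 in control against 109 and 115 in KD, and with V1 87.4 and 102 in control against 73.5 and 95.8 in KD. The conditions overlapped with both enzymes. The log2 difference was 0.32 ± 0.26 with S1 and −0.17 ± 0.33 with V1, with adjusted p of 0.405 and 0.853 (limma). Without S1 control replicate 2 the S1 difference was 0.66, with an adjusted p of 0.0488 (limma), and without S1 control replicate 1 it was −0.02. Under TMM scaling the difference was 0.68 with S1 and −0.0069 with V1, with adjusted p of 0.0722 and 0.988 (limma).

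**Figure D5:**
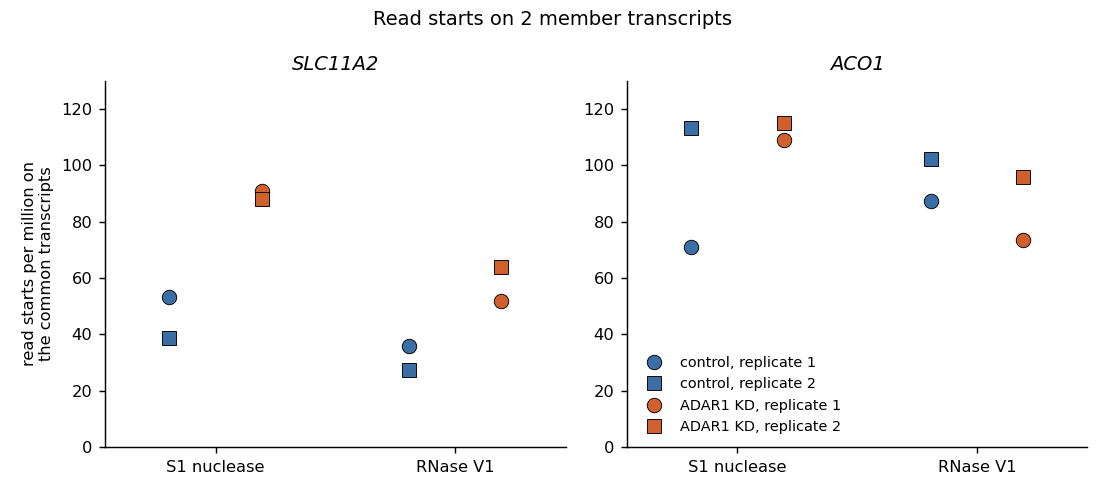
The y axis is read starts per 1000000 on the common transcripts, blue is control and orange KD, circles are replicate 1 and squares replicate 2. The KD values of SLC11A2 lie above its control values with both enzymes, and those of ACO1 overlap.

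The share of double-stranded calls, DS/(DS + SS), counts bases where V1 (DS) or S1 (SS) read starts were in excess by Fisher's exact test at 0.05. Both transcripts come from a list the study chose by this ratio on these samples, so that their values are only a description. SLC11A2 had 0.514 and 0.462 in control against 0.478 and 0.479 in KD, which overlap. ACO1 had 0.641 and 0.551 in control against 0.5 and 0.574 in KD, which overlap as well. The mean difference, KD minus control, was −0.0591 for ACO1 and −0.00979 for SLC11A2, and when the test used the totals of the transcript itself both turned, to 0.0618 and 0.0676. The mean coverage was 0.701 to 2.80 read starts per base for SLC11A2 and 2.10 to 4.08 for ACO1, and at this depth most bases could not be classified. The values rested on 225 to 582 classified bases for SLC11A2 and on 323 to 382 for ACO1.

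Other genes of iron metabolism were followed in 7 lists with 76 rows. Under the fold rules given above, 3 of the 63 tested in PARS-seq were higher in KD and 9 lower, where 8.69% and 8.1% of all genes were. In RNA-seq 2 of the 64 tested were higher and 9 lower, where 6.75% and 7.41% of all genes were. In Ribo-seq none was called (limma).

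Among 14 genes of iron uptake and transfer, STEAP3 and LCN2 were higher in both PARS-seq and RNA-seq, of 10 and 11 tested, and none was lower. Both were under 1 RPKM in the PARS-seq controls and passed the filter there only through KD, so that their PARS-seq calls are no support for the list or for the total over the lists. STEAP3, the endosomal ferrireductase that prepares iron for SLC11A2, had 0.786 and 0.707 RPKM in PARS-seq control against 3.25 and 3.66 in KD, 5.41 in RNA-seq control against 15.9 in KD, and ratios of 4.25 and 1.92 in Ribo-seq. LCN2, a secreted protein that binds iron-carrying siderophores, had 0.201 and 0.21 RPKM in PARS-seq control against 2.77 and 3.34 in KD, and 2.15 against 4.95 in RNA-seq. The list's median ratios lay between 1.08 and 1.19 over the 5 pairs.

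The list of hepcidin control includes the BMP receptor pathway that sets HAMP transcription. Of 13 genes tested in this list, 3 were lower in PARS-seq and 4 in RNA-seq, and none was higher, beside 8.1% and 7.41% of all genes lower. HFE, which takes part in iron sensing at the cell surface, had 28.1 and 20.6 RPKM in PARS-seq control against 14.8 and 11.8 in KD and a ratio of 0.536 in RNA-seq. ID1 had 507 and 426 RPKM in PARS-seq control against 196 and 197 in KD and a ratio of 0.641 in RNA-seq. The receptor BMPR2 was lower in both assays, with ratios of 0.569 and 0.449 in PARS-seq and 0.641 in RNA-seq, and BMPR1A was lower in RNA-seq, with 0.638. The list's median ratios lay between 0.709 and 1.08.

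In the list of heme and iron export, with 13 genes tested, 3 were lower in PARS-seq and 5 in RNA-seq, beside 8.1% and 7.41% of all genes. ABCG2, an exporter of porphyrins, had ratios of 0.237 and 0.228 in PARS-seq, 0.241 in RNA-seq and 0.371 and 0.657 in Ribo-seq. ALAD, which joins precursors of heme into porphobilinogen, had ratios of 0.448 and 0.593 in PARS-seq and 0.536 in RNA-seq. HMOX1, which breaks heme down and releases its iron, had 0.45 and 0.446 in PARS-seq but 0.857 in RNA-seq and 0.987 and 1.63 in Ribo-seq. FLVCR2 and UROS were past the rule downwards in RNA-seq alone, with 0.664 and 0.661. In Ribo-seq FLVCR2 had ratios of 3.90 and 1.00, and UROS had 1.77 and 0.691. The list's median ratios lay between 0.669 and 1.11.

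The remaining lists held few calls. Of 11 tested genes of iron-sulfur cluster assembly, FDXR, a ferredoxin reductase, and NFU1, a cluster scaffold, were lower in PARS-seq, with ratios of 0.416 and 0.54 for FDXR and 0.639 and 0.659 for NFU1, and none was called in RNA-seq. Of 4 tested genes among other transcripts with an IRE, PFN2 was lower in PARS-seq, with 0.576 and 0.665, and had 0.977 in RNA-seq. Of 6 tested genes of the HIF pathway, VHL, which marks HIF proteins for degradation, was higher in PARS-seq, with 1.85 and 1.88, and had 1.27 in RNA-seq. None of the 6 genes of IRP and ferritin turnover was called in either assay. The median ratios over the 5 pairs lay between 0.8 and 1.22 for cluster assembly, 0.768 and 0.968 for the other IRE transcripts, 0.932 and 1.15 for the HIF pathway, and 0.789 and 1.54 for turnover.

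Finally, the genes with the most similar pattern were listed for each member, by Pearson's correlation of log2(RPKM + 1), centred within each assay, over 10 columns and 7998 genes. The closest genes were TCTA (0.99) for FTL, PEX14 (0.989) for FTH1, HSDL2 (0.995) for TFRC, ETS2 (0.973) for SLC11A2, CYR61 (0.999) for ACO1, CALU (0.984) for IREB2 and SGSH (0.993) for EPAS1. The columns share treatment and depth, each gene was picked as the highest of many, and the values are a description only.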

How the data were processed

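PARS-seq, RNA-seq and Ribo-seq of control and ADAR1 KD cells were analysed, with groups and replicate numbers from the sample labels. The authors aligned reads to hg19 with bowtie2 in local mode and kept unique alignments, and their RPKM values rest on coverageBed counts over RefSeq transcripts. For PARS-seq they deposited the mean RPKM of 2 libraries, one of each enzyme, and, from an alignment to UCSC transcripts, raw read starts at each base.

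Ratios used RPKM as deposited. Genes were tested where their mean reached 1 RPKM. Exact Clopper-Pearson intervals at 95% used reads recovered from the RPKM steps and cover counting error only. Ribo-seq was tested with limma (version 3.58.1, R 4.3.3, mean trend) on log2(RPKM + 1). Read starts were tested likewise, one fit for each enzyme, on log2 values per 1000000 after adding 0.5. Their filter asked for 10 read starts, rescaled to a library of median depth, in 2 samples, and for a sum of 15. A Benjamini-Hochberg adjusted p under 0.05 was called. Permuting 2 against 2 libraries can give no two-sided exact p under 0.333, so none was used. IRE matches used GENCODE release 44 on GRCh37. Python 3.11.15, pandas 2.3.3 and matplotlib 3.10.9 were used. All 9 members were described, other iron genes were named where past a call rule, except 1 that is counted but not reported here, and the closest gene of each member was named. The members and lists were chosen with earlier results of these data known. Alternatives covered pseudocounts, filters, scaling, the replicate block, thinning and leaving out each library.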

Additional observations from a re-analysis of the deposited data

Results flagged for a closer look

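ACO1 read starts, scaled by library size, went in opposite directions with the 2 nucleases. With S1 the ratio of KD to control read starts per 1000000 was 1.54 in replicate 1 and 1.02 in replicate 2, while with V1 it was 0.841 and 0.935. Every S1 pair was thus above 1 and every V1 pair below 1. Under TMM scaling the log2 change was 0.68 with S1 and −0.0069 with V1. In a single fit over the 8 libraries and 4721 transcripts, the V1 change of ACO1 minus its S1 change was −0.49 ± 0.41 (SE, log2), with an adjusted p of 1.00 (limma), so that the difference did not pass the test, and none of the transcripts did.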

How the results depend on the processing

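No Ribo-seq gene was called under the pseudocounts, filters, centring or left-out libraries tried, and with the replicate number as a block 143 genes were called, ADAR among them but none of the 7 members. The deviations of same-numbered libraries correlated across genes (0.81 in Ribo-seq, 0.467 with S1 and 0.388 with V1), but with 2 pairs the labels do not say that the numbers mark a shared batch. Under this block, the SLC11A2 read starts had an adjusted p of 0.00292 with S1 and 0.159 with V1 (limma). Here too the variance came from a trend over all transcripts. A fit by voom on the recovered reads, chosen after seeing the data, called no gene without the block and 80 with it, no member among them. Leaving out a library turned the Ribo-seq direction of most members: the range was −1.64 to 0.68 for FTH1, −2.71 to 0.61 for FTL, −0.78 to 1.31 for TFRC, −0.47 to 1.28 for ACO1, −0.81 to 0.0324 for IREB2 and −0.72 to 2.11 for EPAS1, but 0.34 to 0.73 for SLC11A2.

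In PARS-seq, 3 members were past the fold, 2 with a pseudocount of 1 RPKM, 4 after division by the median ratio, and, with a single replicate, 3 without replicate 1 and 6 without replicate 2. Read-start differences ranged, without each library, from −0.0170 to 0.66 for ACO1 and 0.75 to 1.21 for SLC11A2 with S1, and from −0.34 to 0.0080 and 0.68 to 1.07 with V1. TMM scaling gave 1.04 for SLC11A2 with V1, past the threshold. The KD minus control difference in DS/(DS + SS) was 0.0618 for ACO1 and 0.0676 for SLC11A2 against the transcript's own totals, −0.0319 for ACO1 and 0.0681 for SLC11A2 after thinning, and ranged from −0.141 to 0.0228 and from −0.0365 to 0.0169 in single replicates. The cause of these shifts was not tested. In Ribo-seq HAMP was at 0 and SLC40A1 had at most 4 reads. EPAS1 had 17 and 22 reads in replicate 2, the replicate with more reads in total. The part of depth in these low values was not tested.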
